A study of Danio rerio with 20 samples.

Results

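The 2 sets of wild-type zebrafish that served as controls in a microRNA array study were set against each other. These were the wild type SLW, the control of the sapje-like cohort, and the wild type SW, the control of the sapje cohort. Members were chosen by the names in their titles, which gave 10 of the 20 samples of the series. They comprised 2 wild type SLW and 2 wild type SW samples at 5 days post fertilisation (dpf), and 3 of each at 30 dpf. Every mature microRNA probe of the array was considered, 219 in all, of which 167 were tested and 52 were left out as dim. A probe was tested when any group had at least 2 samples in which it exceeded the background.

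All samples were whole fish of the TL strain, kept in fish water and fed shrimp, with RNA taken from 10 fish per cohort. Both groups are labelled wild type, and they differ in their labels only by the cohort name. Whether they were siblings of the mutants, or shared parents or tanks, is not given in the sources used here. The mutants of each cohort, sapje and sapje-like, carry dystrophin mutations and enter here only as partners in the fit and for comparison. The labels do not say whether replicates are separate pools, so p-values measure only the spread between these samples, which may be technical.

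MicroRNAs are short RNAs that guide Argonaute proteins to messenger RNAs, chiefly through the seed, bases 2 to 8 of the microRNA. MicroRNAs that share a seed form a family with overlapping targets. In fish, miR-1, miR-133 and miR-206 mark striated muscle, miR-430 clears maternal messenger RNA from the early embryo, and let-7 accumulates as development proceeds. A contrast between 2 sets of wild types shows how far such levels can differ between control groups that carry the same genotype label.

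The microRNAs on which the results turn are printed here 5′ to 3′, from the target sequences listed in the array files, so that members of a family can be compared. Capitals mark the seed. The pair miR-1 and miR-206 share a seed but differ elsewhere at 4 bases.
miR-1: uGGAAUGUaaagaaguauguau
miR-206: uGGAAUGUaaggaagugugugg
The 4 tested members of the miR-430 family share another seed. By edit distance miR-430j is 2 bases from miR-430b and 6 from miR-430a.
miR-430a: uAAGUGCUauuuguugggguag
miR-430b: aAAGUGCUaucaaguugggguag
miR-430c: uAAGUGCUucucuuugggguag
miR-430j: aAAGUGCUaucaaauuggggua
In the let-7 family, let-7j is closest to let-7g, at 2 bases, and the common let-7a is shown for comparison.
let-7a: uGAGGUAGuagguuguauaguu
let-7g: uGAGGUAGuaguuuguauaguu
let-7j: uGAGGUAGuuguuuguacaguu
The next pairs differ at 1 base each, so signal of one may include RNA of the other, which was not tested.
miR-103: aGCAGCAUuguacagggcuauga
miR-107: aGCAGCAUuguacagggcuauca
miR-454a: uAGUGCAAuauugcuaauaggg
miR-454b: uAGUGCAAuauugcuuauaggg

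Levels are log2 intensities after background correction and quantile normalisation over the 219 probes. Differences are SLW minus SW on that log2 scale, with the standard error of limma's fit. A probe passed when its adjusted p-value (Benjamini-Hochberg, over all 167 probes) was under 0.05. The number of arrays limits the precision. Each sample was 1 dye channel of a 2-colour array. At 5 dpf replicate 1 was Cy5 and replicate 2 was Cy3 in both groups, and at 30 dpf each group had 2 Cy5 samples and 1 Cy3 sample, so the dyes were balanced. The median empty spot read 35.2 to 47.2 in the 6 Cy5 wild-type samples and 282 to 572 in the 4 Cy3 ones. Between 138 and 154 probes were above background in Cy5 and between 105 and 173 in Cy3. The lowest count, 105, was that of SW replicate 2 at 5 dpf.

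The wild-type samples were not equally close to one another. At 5 dpf the standard deviation (SD) of the log2 differences over the tested probes was 0.93 between the 2 SLW samples and 0.71 between the 2 SW samples. Both of these pairs set a Cy5 sample against a Cy3 sample. Between cohorts it was 0.54 and 0.89 for the 2 pairs of like dye, and 0.65 and 1.15 for the 2 pairs of unlike dye. Among pairs of unlike dye, those from different cohorts were thus not uniformly farther apart than those within one. SLW replicate 1 accounted for the 2 largest distances between cohorts. At 30 dpf the SD was 0.35 to 0.47 within SW and 0.40 between SLW replicates 2 and 5, against 1.16 and 1.04 between SLW replicate 8 and those 2. SLW replicate 8 therefore stood apart from the other 30 dpf wild types.

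**Figure D1:**
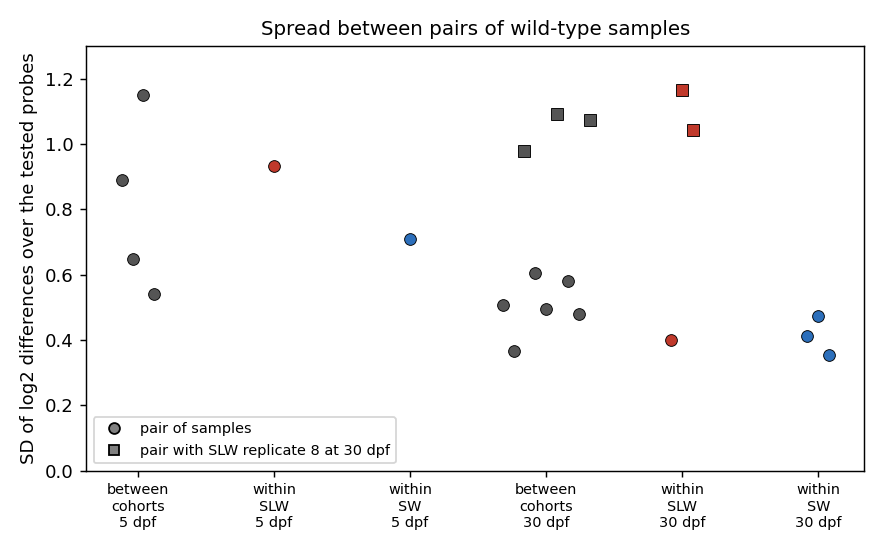
Standard deviation of log2 differences over the 167 tested probes (y axis) for each pair of wild-type samples of 1 age, by whether the pair spans the cohorts or lies within SLW or SW; squares are pairs with SLW replicate 8 at 30 dpf. Pairs with that replicate lie between 0.98 and 1.16, and the other pairs at 30 dpf between 0.35 and 0.60.

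At 5 dpf, miR-1, miR-430j and miR-430a were higher in SLW fish than in SW fish, 3 microRNAs in all, and 0 were lower. These were 1.8% of the 167 probes tested with limma, and 26 probes had an unadjusted p under 0.05, 13 in each direction. The median difference over all tested probes was -0.07. Groups did not overlap for 28 probes with SLW above SW (16.8%) and 20 with SLW below SW (12%). The spread that limma used comes from all 20 samples. The median SD over probes was 0.35 in SLW and 0.37 in SW at this age, above the 0.18 in sapje-like and 0.11 in sapje. When the fit held the 10 wild types alone, 1 probe passed, miR-1.

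The muscle microRNA miR-1, which restrains proliferation and favours the contractile programme in muscle fibres, had the largest difference of any tested probe at 5 dpf. Its level was 14.30 and 13.94 in SLW replicates 1 and 2, against 11.60 and 12.09 in SW replicates 1 and 2. Both SLW samples lay above both SW samples by more than the gap within either group. Before normalisation its mean intensity above the empty spots was 36132 and 14679 in SLW, against 1496 and 4452 in SW. By brightness it ranked 2 and 3 among the 219 probes in the SLW samples, against 25 and 17 in the SW samples.

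The fitted difference for miR-1 was 2.27 ± 0.31 (4.84-fold, 95% confidence interval 1.60 to 2.95 on the log2 scale, n = 2 and 2, adjusted p = 0.000839). Within the Cy5 channel it was 2.71 and within the Cy3 channel 1.84. Without any 1 of the 20 samples it stayed between 2.00 and 2.54 and passed each time. It also passed with the wild types alone (adjusted p = 0.0309). It did not pass when 5 dpf was fitted alone (2.07, adjusted p = 0.0714) or after cyclic loess (2.44, adjusted p = 0.108).

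Other muscle microRNAs did not share a difference of that size. The striated muscle list (miR-1, miR-133, miR-206 and miR-499) had 7 tested probes at 5 dpf. All 7 differences were above 0, against 76 of the 167 tested probes, and only miR-1 passed. Of the 7, miR-1 alone kept that sign in all 33 alternatives, and miR-133a* was below 0 under 3 other scalings. The list's median was 0.18, against -0.07 over all tested probes. Without SLW replicate 1 that median was -0.06. miR-206, with the same seed as miR-1, was at 14.65 and 14.65 in SLW and at 14.65 and 14.30 in SW, a difference of 0.18 ± 0.34 (adjusted p = 0.896). The groups overlapped at the top rank, which quantile normalisation gives 1 shared value.

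miR-133a was at 12.49 and 11.48 in SLW and at 12.04 and 11.85 in SW, and miR-133b at 12.39 and 11.18 in SLW and at 11.48 and 11.73 in SW. Both pairs of groups overlapped, with differences of 0.04 ± 0.59 and 0.18 ± 0.62. miR-133c was at 11.18 in SLW replicate 1 and at 8.01 in SLW replicate 2, against 8.09 and 7.82 in SW. Its difference of 1.64 ± 1.07 (adjusted p = 0.496) thus rested on SLW replicate 1, and it was -0.06 without that sample. The star strand miR-133a* (0.03 ± 0.28) and miR-499, encoded within a myosin heavy chain gene (0.24 ± 0.52), did not pass either. In RNA of whole fish, fewer cells of a type and less microRNA per cell cannot be told apart.

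**Figure D2:**
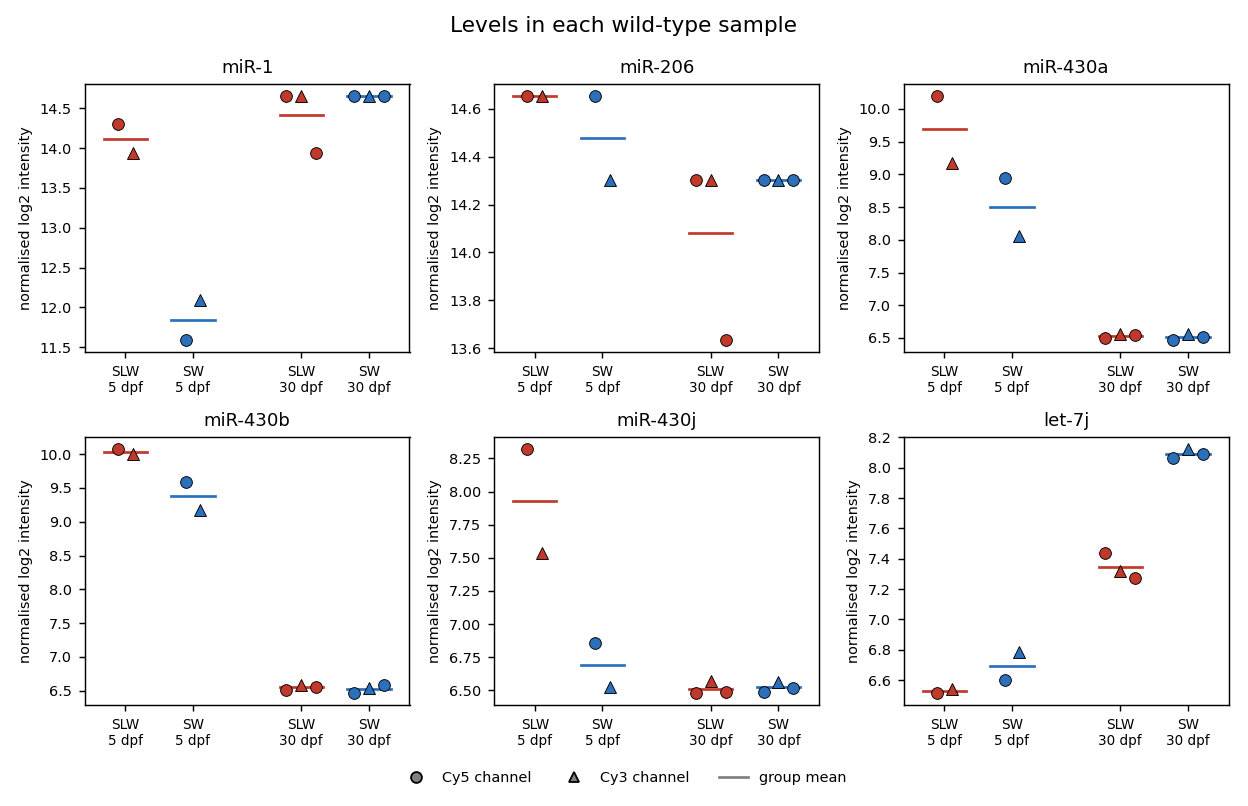
Normalised log2 intensity (y axes, scaled separately) of 6 microRNAs in each wild-type sample, by cohort and age; circles are Cy5 channels, triangles Cy3 channels and lines group means. At 5 dpf both SLW samples lie above both SW samples for miR-1, miR-430a, miR-430b and miR-430j, and at 30 dpf all 3 SLW samples lie below all 3 SW samples for let-7j.

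Some members of the miR-430 family also differed between the cohorts at 5 dpf, when the family's peak in the early embryo has passed. Of its 4 tested members, miR-430a and miR-430j were higher in SLW and miR-430b and miR-430c did not pass. The list's median was 0.92, against -0.07 over all tested probes, and between 0.64 and 1.68 over all alternatives. A further member, miR-430i, was too dim to be tested.

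miR-430j was at 8.32 and 7.53 in SLW, against 6.86 and 6.52 in SW. The groups did not overlap, and miR-430j was above background in both SLW samples and not well above background in either SW sample. Its difference was 1.24 ± 0.21 (adjusted p = 0.00431). As SW gives only a bound, the group means put SLW at least 1.99-fold higher, with no allowance for the error of these means. That bound sets the SLW mean against, per SW sample, the lowest level among probes above background or the probe's own level, whichever is higher. It did not pass with the wild types alone (adjusted p = 0.181), nor without SLW replicate 1 (0.84, adjusted p = 0.0708) or SW replicate 2 (adjusted p = 0.0811).

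miR-430a was at 10.20 and 9.17 in SLW, against 8.94 and 8.06 in SW. The groups did not overlap, with the higher SW sample 0.23 below the lower SLW sample. The difference was 1.18 ± 0.26 (2.27-fold, adjusted p = 0.0292), and with the wild types alone it did not pass (adjusted p = 0.317), nor did it without SLW replicate 1 (0.73, adjusted p = 0.294) or SW replicate 2 (0.80, adjusted p = 0.182). miR-430b was at 10.07 and 10.00 in SLW, against 9.59 and 9.17 in SW, again without overlap. Its difference of 0.65 ± 0.17 did not pass (adjusted p = 0.0642). miR-430c was at 7.53 and 8.99 in SLW and at 8.32 and 8.54 in SW, so the groups overlapped (-0.17 ± 0.29, adjusted p = 0.884). Its lowest level was in SLW replicate 1, which had the highest level of miR-430a. With 1 sample left out the miR-430c difference ran from -0.90 to 0.54.

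At 30 dpf the miR-430 family was at background in both cohorts. The 4 tested members lay between 6.44 and 6.59 in all 6 wild-type samples, and of these readings only 1, miR-430b in 1 SLW sample, was above background. Their differences of -0.01 to 0.03 at that age are therefore between readings at background.

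The probes next in line at 5 dpf did not pass. Above 0 these were miR-454a, miR-430b, miR-454b and miR-9, and below 0 miR-34, miR-103, miR-733 and miR-214. miR-9, a microRNA of neural progenitors, was at 13.08 and 11.96 in SLW, against 10.64 and 10.76 in SW, without overlap (1.82 ± 0.55, 3.53-fold, adjusted p = 0.0957). Its star strand miR-9* lay at 11.39 and 11.06 in SLW, against 10.20 and 10.81 in SW (0.72 ± 0.30, adjusted p = 0.289). The other neural microRNAs lay on both sides of 0. miR-124, the main microRNA of neurons, had a difference of -0.70 ± 0.30, miR-138 one of -0.61 ± 0.29 and miR-132 one of -0.48 ± 0.30, while miR-128 had 0.25 ± 0.24 and miR-212 had 0.15 ± 0.15. The nervous system list had 7 tested members, 4 above 0 and 3 below, with a median of 0.15, which was -0.30 after median scaling and -0.37 in the authors' table.

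miR-454b was at 11.29 and 10.07 in SLW, against 9.13 and 9.13 in SW (1.55 ± 0.42, adjusted p = 0.0712), and its near copy miR-454a at 8.01 and 7.63, against 7.20 and 6.83 (0.81 ± 0.20, adjusted p = 0.06). Neither pair of groups overlapped. On the other side, miR-34, which p53 induces in mammals, was at 7.27 and 8.54 in SLW, against 8.82 and 9.34 in SW (-1.17 ± 0.33, adjusted p = 0.0723). miR-103 was at 8.54 and 9.68 in SLW, against 10.13 and 10.27 in SW (-1.09 ± 0.31, adjusted p = 0.0723). In both cases SLW lay below SW in every sample, with SLW replicate 1 the lowest. Without that replicate the difference was -0.51 for miR-34, -0.55 for miR-103 and 0.92 for miR-454b, and without SLW replicate 2 it was -1.86, -1.63 and 2.12, each past the threshold (adjusted p = 0.00114, 0.00371 and 0.0136).

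Of the 32 families with at least 2 tested members and a shared seed, 15 had all their differences on 1 side of 0 at 5 dpf, and 11 of these 15 were pairs. The 32 families held 17 pairs in all, and at 30 dpf 18 of the 32 families lay on 1 side. The families described next were chosen after their values were seen, and none of their members passed. The 4 microRNAs miR-17a, miR-20a, miR-20b and miR-93, of the clusters related to miR-17-92 that promote proliferation in mammals, had differences of -0.80 to -0.57. For miR-17a the samples stood at 10.00 and 12.16 in SLW, against 11.23 and 12.49 in SW. The groups overlapped, SLW replicate 1 was the lowest, and the median of the 4 turned to 0.18 without it, against -0.72 with it. miR-221 and miR-222, encoded side by side, lay at -0.71 and -1.12, with a median of -0.04 without SLW replicate 1. The Hox cluster microRNAs miR-196a and miR-196b lay at 1.00 and 1.10, with a median of 0.13 without that sample. The miR-181 family, with 3 of 3 below 0 and a median of -0.65, kept that sign without any 1 of the 4 wild types of the age, when its median ran from -0.99 to -0.20. Probes of 1 family can share signal, so these counts are not independent readings.

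SLW replicate 1 and its partner replicate 2 weighed differently on these results. Among the 6 Cy5 wild types, the empty spots of replicate 1 had the highest median (47.2) and spread (4.41, against at most 3.34). miR-739 ranked 3 by brightness there, against 93 in SLW replicate 2 and 58 and 74 in SW. Its difference was 4.26 within Cy5 and -0.73 within Cy3. Whether the quality of replicate 1 bears on the results was not tested. With replicate 1 as the only SLW sample at 5 dpf, 28 probes passed (10 higher, 18 lower), and with replicate 2 as the only one 1 passed, miR-1; such a lone sample is assumed to vary like the other groups. The injury list, miR-21, miR-31, miR-34, miR-221 and miR-222, had a median of -0.58 with 5 of 6 probes below 0, and of -0.04 without SLW replicate 1. miR-21 itself, known for its rise in injured tissue, was at 12.16 and 12.49 in SLW and at 12.80 and 12.30 in SW (-0.23 ± 0.22, adjusted p = 0.688).

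**Figure D3:**
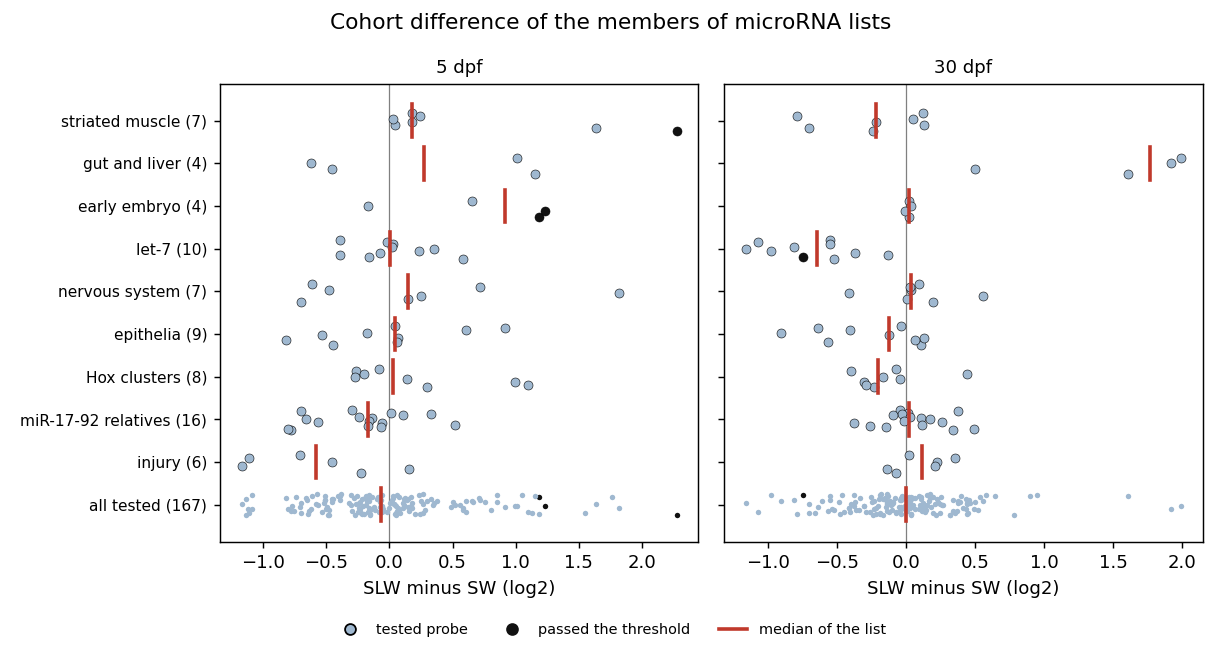
SLW minus SW difference (x axes, log2) of each tested member of 9 microRNA lists and of all tested probes, at 5 dpf (left) and 30 dpf (right); the number of tested probes stands in brackets, black points passed the threshold and red bars are medians. At 5 dpf the early embryo list has a median of 0.92, and at 30 dpf all 10 let-7 probes lie below 0 and the gut and liver median of 1.76 rests on SLW replicate 8.

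At 30 dpf, let-7j was lower in SLW fish than in SW fish, and it was the 1 microRNA that passed. That is 0.599% of the 167 tested probes, and 15 had an unadjusted p under 0.05, 8 above and 7 below 0. The median difference over all tested probes was 0, and 5 probes differed by over 1 on the log2 scale, against 20 at 5 dpf. These counts are not on equal terms, as groups held 3 samples at 30 dpf and 2 at 5 dpf. The median SD over probes was also lower at 30 dpf, 0.28 in SLW and 0.19 in SW, against 0.35 and 0.37 at 5 dpf. Groups did not overlap for 14 probes with SLW above SW (8.38%) and 11 with SLW below SW (6.59%). No probe passed when the fit held the 10 wild types alone (6 with an unadjusted p under 0.05 by limma), or when SLW replicate 8 was left out (16).

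let-7j, a member of a family that holds back growth and proliferation genes in differentiated tissue, was at 7.44, 7.32 and 7.27 in SLW replicates 2, 5 and 8. In SW replicates 2, 3 and 4 it was at 8.06, 8.12 and 8.09. All 3 SLW samples lay below all 3 SW samples, and the gap between the groups was several times the range within either. The difference was -0.75 ± 0.14 (1.68-fold lower, 95% confidence interval -1.05 to -0.45, n = 3 and 3, adjusted p = 0.0193). It stayed between -0.79 and -0.69 when any 1 sample was left out, but did not pass without any 1 of the 6 wild types of this age. It did not pass either with the wild types alone (-0.76, adjusted p = 0.282), after median scaling (-0.82, adjusted p = 0.305) or in the authors' table (-1.47, adjusted p = 0.557). At 5 dpf let-7j was not above background in any wild-type sample.

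The rest of the let-7 family lay on the same side of 0. All 10 tested members had differences below 0, from -1.16 to -0.13, with 1 passing and a median of -0.65, against 0 over all tested probes. Over all tested probes 84 of 167 were below 0. In 5 of the 10 all SLW samples lay below all SW samples, against 6.59% of all tested probes. let-7f was at 9.91, 9.74 and 8.32 in SLW, against 10.00, 11.06 and 10.40 in SW (-1.16 ± 0.45, adjusted p = 0.539). let-7g was at 8.09, 8.12 and 7.25 in SLW, against 8.51, 9.59 and 8.32 in SW (-0.98 ± 0.36, adjusted p = 0.539). let-7a, with higher signal, was at 11.43, 11.39 and 10.61 in SLW, against 11.43, 12.09 and 11.48 in SW (-0.53 ± 0.39, adjusted p = 0.724).

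For let-7f and let-7g the groups did not overlap, and for let-7a 1 SLW sample equalled the lowest SW sample. SLW replicate 8 was the lowest and SW replicate 3, of the Cy3 channel, the highest for each of these 3. Without SLW replicate 8 the difference was -0.65 for let-7f and -0.70 for let-7g, and without SW replicate 3 it was -0.84 and -0.55. The family's median was -0.44 without SLW replicate 8 and -0.43 without SW replicate 3, and all 10 probes kept their sign without any 1 of the 6 wild types and under the 4 other scalings. The 10 probes differ by as little as 1 base and can share signal. At 5 dpf the let-7 list was split evenly, with 5 members above and 5 below 0 and a median of 0.00. Several of these readings were at background. At that age let-7h and let-7j were not above it in any wild type, and let-7e and let-7g in only 1 SLW sample. The even split therefore does not show that the family was alike in the cohorts at 5 dpf.

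The gut and liver list separated SLW replicate 8 from every other wild type of its age. It holds miR-122, the main microRNA of hepatocytes, and miR-192, miR-194a and miR-194b of the intestine and liver. miR-192 was at 7.75, 7.75 and 14.65 in SLW replicates 2, 5 and 8, against 8.04, 7.93 and 8.22 in SW. miR-122 was at 6.64, 6.97 and 12.09 in SLW, against 7.34, 6.94 and 6.60 in SW. miR-194a was at 7.60, 7.66 and 12.57 in SLW, against 7.53, 7.20 and 7.34 in SW. In SLW replicate 8 miR-192 shared the top value of the array, while in the other 5 wild types these 3 probes lay between 6.60 and 8.22. The pancreatic miR-217 stood out there too, at 7.18, 7.29 and 9.80 in SLW, against 7.25, 7.04 and 7.16 in SW.

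The list's mean level was 11.85 in SLW replicate 8, 7.17 and 7.26 in the other SLW samples and 7.17 to 7.39 in SW. Among the mutants of the same age it was 11.59 to 12.16 in sapje-like and 11.91, 9.57 and 9.16 in sapje, so all 6 mutant samples lay above the other 5 wild types. None of the 4 probes passed, and the SLW samples disagreed. The list's median difference was 1.76 with all samples and -0.09 without SLW replicate 8. At 5 dpf the mean level was 9.22 and 10.01 in SLW and 9.08 and 9.61 in SW, with overlapping groups. Members differed in direction at that age. miR-122 and miR-192 had differences of 1.16 and 1.01, each with both SLW samples above both SW samples. That held for 16.8% of all tested probes at 5 dpf. miR-194a and miR-194b had -0.62 and -0.46, and none of the 4 passed.

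Muscle microRNAs lay low in that sample. The mean level of the striated muscle list at 30 dpf was 10.42 in SLW replicate 8, against at least 11.77 in SLW replicates 2 and 5 and 11.53 to 11.72 in SW. None of its 7 probes passed at this age, and its median was -0.22 with all samples and 0.34 without SLW replicate 8. miR-1 was at 14.65, 14.65 and 13.94 in SLW, against 14.65 in all 3 SW samples. It was the brightest probe in 5 of the 6 samples and ranked 3 in SLW replicate 8, so at this age its normalised level could not separate the others. The difference was -0.24 ± 0.26 (adjusted p = 0.916), and after median scaling, which does not tie the brightest probes, -0.42 (adjusted p = 0.582). miR-133c was at 10.86, 10.81 and 7.75 in SLW, against 10.53, 10.40 and 10.61 in SW. The share of gut, liver and muscle in the RNA of the samples was not tested.

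**Figure D4:**
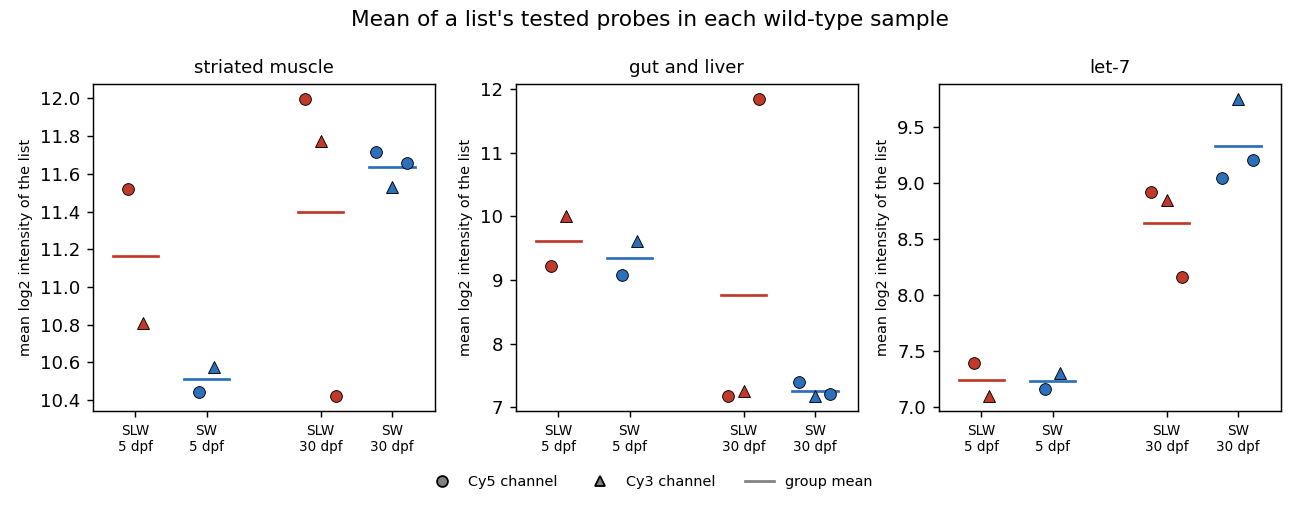
Mean normalised log2 intensity (y axes, scaled separately) of the tested probes of the striated muscle, gut and liver, and let-7 lists in each wild-type sample, by cohort and age; circles are Cy5 channels, triangles Cy3 channels and lines group means. At 30 dpf SLW replicate 8 is at 11.85 for gut and liver, against at most 7.39 in the other wild types, and at 10.42 for striated muscle, against at least 11.53.

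The probes next in line at 30 dpf were miR-30d, miR-128, miR-143 and miR-24 above 0, and let-7g, let-7f, let-7e and miR-203a below 0. None passed. miR-30d was at 9.64, 9.68 and 9.39 in SLW, against 9.17, 8.82 and 8.79 in SW (0.64 ± 0.19, adjusted p = 0.366). miR-128, a neuronal microRNA, was at 9.04, 9.17 and 9.55 in SLW, against 8.69, 8.54 and 8.86 in SW (0.56 ± 0.20, adjusted p = 0.539). Both had all SLW samples above all SW samples. miR-143, of smooth muscle, was at 8.75, 8.82 and 9.85 in SLW, against 8.54, 8.19 and 8.01 in SW (0.90 ± 0.35, adjusted p = 0.539), with SLW replicate 8 the highest. miR-203a, of the skin, was at 11.18, 12.39 and 12.67 in SLW, against 13.08, 12.94 and 12.94 in SW (-0.91 ± 0.38, adjusted p = 0.539). Without SLW replicate 8 the differences were 0.72 for miR-30d, 0.44 for miR-128, 0.49 for miR-143, 0.93 for miR-24, -0.74 for let-7e and -1.25 for miR-203a, and none passed. miR-203a was at -0.48 without SLW replicate 2.

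Over both ages, 2 microRNAs were higher in SLW, miR-1 and miR-430j, and 0 were lower (1.2% of tested probes, 13 with an unadjusted p under 0.05 by limma). The mean of the within-age differences was 1.02 ± 0.20 for miR-1 (adjusted p = 0.0336) and 0.61 ± 0.14 for miR-430j (adjusted p = 0.0482). For both it came from 5 dpf. No probe passed with the wild types alone, whether each age had its own cohort term (8 with an unadjusted p under 0.05) or 1 cohort term with age and dye was fitted (3). No probe had all SLW samples above all SW samples at both ages (0%), and 2 had all below (1.2%), let-7h and let-7j, which were not above background in any 5 dpf wild type. Next in line were miR-430a, miR-430b, miR-128 and miR-724 above 0, and let-7j (-0.46 ± 0.11, adjusted p = 0.0603), miR-456, miR-181b and miR-214 below 0.

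In the main fit the cohort difference changed with age for some probes. None of these passed with the wild types alone or without SLW replicate 1 of 5 dpf. Of the 167 probes, 70 (41.9%) had differences of the same sign at both, and across probes the differences correlated at r = -0.23 (Spearman's rho = -0.32). Probes are not independent, and the probes of a sample share its labelling and normalisation. Tested directly, the difference at 30 dpf minus that at 5 dpf passed for 6 probes (3.59% of the 167), 2 above 0 (1.2%) and 4 below 0 (2.4%), and 26 had an unadjusted p under 0.05.

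For miR-1 it was -2.51 ± 0.40 (adjusted p = 0.00433) and for miR-430j -1.25 ± 0.27 (adjusted p = 0.0307), both without a cohort difference past the threshold at 30 dpf. At that age miR-430j was at background in the wild types, and miR-1 was at or near the top of the scale. miR-454a and miR-454b lay above 0 at 5 dpf (0.81 and 1.55) and below 0 at 30 dpf (-0.37 and -0.66), a change of -1.17 ± 0.26 (adjusted p = 0.0307) and -2.21 ± 0.54 (adjusted p = 0.0405). miR-454b at 30 dpf was at 7.72, 7.36 and 7.72 in SLW, against 7.66, 8.35 and 8.75 in SW, with overlapping groups. miR-454a was at or near background in SW replicate 2 at 5 dpf and in SLW replicate 2 at 30 dpf.

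The opposite pattern was seen for miR-103 and miR-24. miR-103, of a family tied to lipid and glucose metabolism in mammals, had -1.09 at 5 dpf and 0.58 at 30 dpf, a change of 1.67 ± 0.40 (adjusted p = 0.0404). At 30 dpf it was at 9.30, 9.30 and 8.94 in SLW, against 8.82, 8.48 and 8.51 in SW. miR-24 had -1.14 at 5 dpf and 0.78 at 30 dpf, a change of 1.92 ± 0.49 (adjusted p = 0.0491). It was at 8.82 and 9.74 in SLW at 5 dpf, against 9.91 and 10.94 in SW, and at 10.40, 10.45 and 9.91 in SLW at 30 dpf, against 9.85, 9.24 and 9.34 in SW. Both probes had SLW below SW in every 5 dpf sample and above it in every 30 dpf sample, as did miR-107, miR-30d and miR-34. Of all tested probes, 12% had SLW fully below SW at 5 dpf and 8.38% had it fully above at 30 dpf. With the wild types alone none of the 6 passed, at adjusted p-values of 0.0811 for miR-1 and 0.236 for the other 5.

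**Figure D5:**
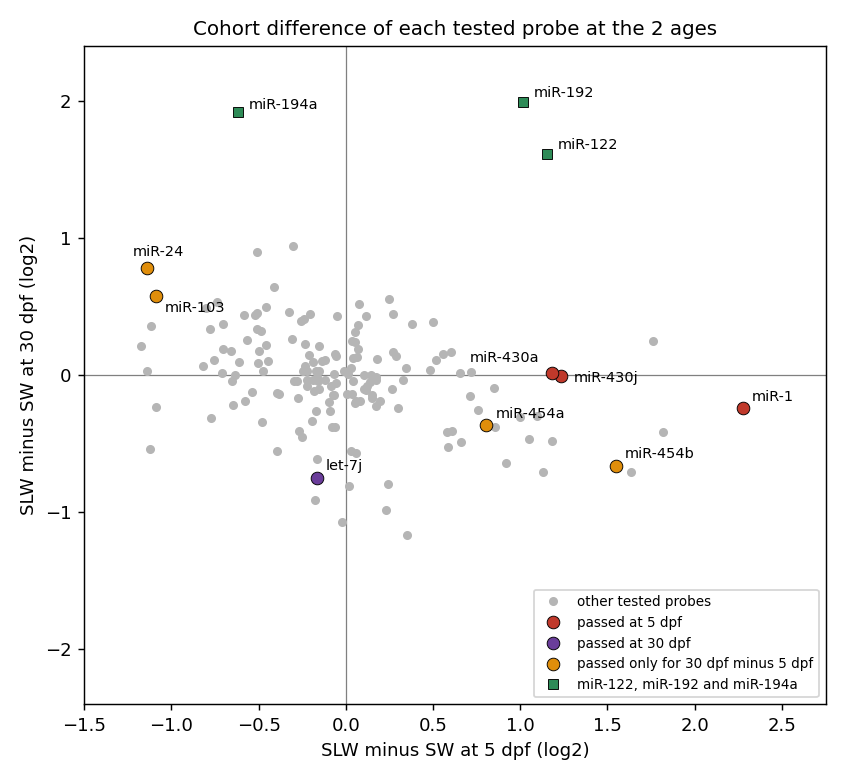
SLW minus SW difference of each of the 167 tested probes at 5 dpf (x axis, log2) and at 30 dpf (y axis, log2), with probes that passed in colour and 3 gut and liver probes as squares. miR-1 lies at 2.27 and -0.24, miR-103 and miR-24 in the upper left and miR-454a and miR-454b in the lower right, and across probes r is -0.23.

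The same contrast between cohorts was available in the mutants, sapje-like minus sapje, which are other samples on the same arrays. There 3 members of the miR-430 family were higher in sapje-like at 5 dpf, by 1.72 ± 0.26 for miR-430a (adjusted p = 0.00122), 1.53 ± 0.17 for miR-430b (adjusted p = 7.39e-05) and 0.97 ± 0.21 for miR-430j (adjusted p = 0.0275). These were the only 3 of the 167 tested probes that passed in that contrast by limma, and 14 had an unadjusted p under 0.05. miR-430a was at 9.21 and 9.30 in sapje-like, against 7.47 and 7.60 in sapje, without overlap. The direction of miR-430a and miR-430j thus held in both genotypes of the sapje-like cohort, each in 2 of 2 samples. miR-430c had 0.79 ± 0.29 in the mutants, the opposite sign to its -0.17 in the wild types, and passed in neither.

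miR-1 did not follow that pattern. It was at 13.43 and 12.94 in sapje-like and at 13.43 and 13.22 in sapje, a difference of -0.14 ± 0.31. The wild-type difference minus the mutant difference at 5 dpf was 2.41 ± 0.44 for miR-1, the 1 probe that passed (adjusted p = 0.0162). That test at 5 dpf alone was chosen after seeing the data and reuses the SLW and SW values given above, so it is not separate support. Among the 4 groups of 5 dpf samples, SLW was the highest for miR-1 and SW the lowest, with both mutants between them. let-7j at 30 dpf had -0.47 ± 0.14 in the mutants (adjusted p = 0.165), the same sign as in the wild types. Of the 10 let-7 probes at that age, 7 were above 0 in the mutants, with a median of 0.42, and none passed. That median was -0.65 in the wild types, and the difference between these medians was not tested.

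Averaged over both ages, the wild-type cohort difference departed from that of the mutants for 0 of 167 probes (0% by limma, 6 with an unadjusted p under 0.05). At 30 dpf alone 0 passed, with 9 under an unadjusted 0.05. The signs of the 2 differences matched for 65.9% of probes at 5 dpf (r = 0.35 and Spearman's rho = 0.37 across probes) and for 55.7% at 30 dpf (r = 0.39 but rho = 0.12). Wild types and mutants of a cohort shared arrays, as inferred from the spots, so the effect of the array and that of the cohort cannot be told apart in this match. With the inferred array as a random block, 3 probes passed at 5 dpf and 1 at 30 dpf.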

How the data were processed

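Per the file headers, the authors deposited, for each sample, 1 scanner channel with the mean intensity of 3968 spots and no background removed; the image software is not given in the sources used here. They hold 219 mature microRNA probes in 12 spots each and 1032 spots named empty. The deposited value table, an intensity per probe on a linear scale with unstated centring, was used as an alternative only; per sample, its logarithms and the values used here had correlations of 0.964 to 0.981.

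Spot intensities were corrected by normexp (offset 50), taken to log2, averaged per probe and quantile normalised over 20 samples. A probe was above background where its mean exceeded the empty spots' median by 3 SD (from the median absolute deviation), and was tested if so in at least 2 samples of a group. limma 3.58.1 in R 4.3.3 (lmFit, eBayes) was fitted on 8 groups plus a dye term (11 residual degrees of freedom, prior 2.48), with two-sided p-values. All 20 samples entered so that they share 1 estimate of spread. Scripts were tested on simulated data. Named probes are those past the threshold, the next 4 in each direction by p, and all members of the striated muscle, gut and liver, and early embryo lists; the text adds members of other lists and seed families, chosen after their values were seen. The contrast, lists and alternatives were chosen with earlier results of these data known. Which samples shared an array was inferred from spot residuals (r = 0.458 to 0.853 for mutual best partners). Whether replicate numbers pair the samples could not be told. Deviations of equally numbered samples correlated at 0.496 at 5 dpf, where the number is also the dye, and at -0.117 for the 1 pair at 30 dpf. Alternatives covered normalisation, background, filter, dye, array and replicate block, the samples in the fit and each sample left out. Plots were made in Python 3.11.15 with matplotlib 3.10.9.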

Additional observations from a re-analysis of the deposited data

Results flagged for a closer look

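For 6 probes the cohort difference was tested to differ between the ages, as SLW minus SW at 30 dpf minus the same at 5 dpf (limma, adjusted p under 0.05). The values were -2.51 for miR-1, -1.25 for miR-430j, -1.17 for miR-454a, -2.21 for miR-454b, 1.67 for miR-103 and 1.92 for miR-24. The sign held in every alternative for each of the 6, with 10 to 28 of the 32 alternatives past the threshold, but the size did not. Median scaling gave -0.19 for miR-430j (adjusted p = 0.831) and -0.48 for miR-454a (adjusted p = 0.415), while the authors' table gave -2.10 (adjusted p = 0.409) and -2.22 (adjusted p = 0.0972). Without SLW replicate 1 of 5 dpf none of the 6 passed. At 30 dpf miR-430j was not above background in any wild type, and miR-1 was the brightest probe in 5 of 6, so each end of the scale limits 1 of these values.

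Of the 52 probes left out as dim, 18 were above background in at least 1 wild-type sample, 16 of them in 1 sample and 2 in 2 samples. These signals enter no comparison.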

How the results depend on the processing

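Alternatives changed the number of calls (limma, adjusted p under 0.05) more than the direction of the microRNAs that passed, none of which changed sign in its comparison. At 5 dpf (3 calls) 1 passed with the wild types alone and 1 in the authors' table, whose scaling moved the median of all probes to -0.11. None (0) passed with each age alone (18 at an unadjusted p under 0.05) or after cyclic loess (30), and 5 passed with quantiles within each age and 5 with no filter on dim probes. At 30 dpf (1 call) 0 passed with the wild types alone (6), median scaling (22), the authors' table (13) or the stricter filter (12). Over both ages (2 calls) 0 passed with the wild types alone (8), 1 additive cohort term (3), cyclic loess (19), median scaling (16), quantiles within each age (12), the authors' table (10), Cy5 only (2) and Cy3 only (1), and 1 each with the stricter filter and the array block. For the difference between ages (6 calls) 0 passed with the wild types alone (20) and cyclic loess (26), 3 with median scaling, 2 in the authors' table and 3 with no filter. Between wild types and mutants (0 calls), 1 passed at 5 dpf alone, an alternative chosen after seeing the data.

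Whether the replicate numbers pair the samples could not be told. At 5 dpf they match the dyes, and at 30 dpf the wild types share only replicate number 2. With the replicate number as a block, calls went to 3 at 30 dpf, 0 over both ages (15 at an unadjusted p under 0.05) and 0 for the difference between ages (30), and were still 3 at 5 dpf. At 30 dpf the block gave differences of 0.067 for miR-133c, 0.23 for miR-206, -0.71 for miR-122, -0.58 for miR-192 and -0.0050 for miR-430a, the opposite sign to the fit without it, and a let-7 median of -0.26.

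Leaving out 1 sample gave 1 to 28 calls at 5 dpf, 0 to 1 at 30 dpf, 0 to 8 over both ages, 0 to 21 for the difference between ages and 0 to 2 against the mutants. The highest counts but that at 30 dpf came without SLW replicate 2 of 5 dpf. At 5 dpf, counts of 6, 7, 7 and 5 came without SW replicate 1, either sapje-like sample of 5 dpf and SW replicate 2 of 30 dpf, and 1 without SLW replicate 1 or SW replicate 2. Other probes that changed sign had not passed, and the cause was not tested. At 5 dpf these were miR-133a with the wild types alone (-0.00021), miR-133a* after cyclic loess, after median scaling and in the authors' table (-0.069, -0.27, -0.032), miR-194a after median scaling (0.12), and miR-430c after cyclic loess and in the authors' table (0.23, 0.15). At 30 dpf, cyclic loess, scaling by the median and the authors' table gave -0.14, -0.26 and -0.13 for miR-133a and -0.14, -0.27 and -0.14 for miR-133b. Cyclic loess and the authors' table gave -0.15 and -0.19 for miR-133a*, and cyclic loess and median scaling 0.093 and 0.57 for miR-430j.

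With 1 sample left out, differences at 5 dpf ran from -0.25 to 0.33 (miR-133a*), -0.49 to 0.56 (miR-133a), -0.49 to 0.85 (miR-133b), -0.057 to 3.33 (miR-133c), -1.24 to 0.033 (miR-194a), -0.038 to 0.35 (miR-206), -0.90 to 0.54 (miR-430c) and -0.42 to 0.86 (miR-499). At 30 dpf they ran from -0.37 to 0.0036 (miR-1), -0.14 to 2.69 (miR-122), -0.19 to 0.34 (miR-133a*), -0.21 to 0.77 (miR-133a), -0.24 to 0.81 (miR-133b), -1.36 to 0.39 (miR-133c), -0.34 to 3.23 (miR-192), -0.041 to 0.90 (miR-194b), -0.34 to 0.0031 (miR-206), -0.086 to 0.13 (miR-430a), -0.041 to 0.065 (miR-430b), -0.013 to 0.084 (miR-430c) and -0.084 to 0.052 (miR-430j). Signal over background limits miR-430 at 30 dpf and miR-430j in SW at 5 dpf, and other probes as well. Examples are miR-133a* at 5 dpf, above background in 1 SLW sample, and miR-194b at 30 dpf, above it in 2 SLW samples. For miR-194b the SW mean is too dim to give more than a bound, at least 1.35-fold. For miR-133a* no bound can be given, as the SLW mean (6.86) lay below the level it is set against (6.97).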

Other observations

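The endothelial, sensory organ and lens, erythroid and immune lists, with 1, 4, 1 and 5 tested probes, held none that passed at either age. Of all 167 tested probes only 1.8% passed at 5 dpf and 0.599% at 30 dpf, so lists this short would seldom hold one. miR-126, the main microRNA of blood vessel endothelium, was at 11.53 and 10.64 in SLW at 5 dpf, against 10.40 and 10.45 in SW (0.66 ± 0.29, adjusted p = 0.29 by limma). At 30 dpf it was at 11.60, 11.43 and 11.43 in SLW, against 11.79, 12.16 and 11.96 in SW (-0.49 ± 0.24, adjusted p = 0.648). The groups did not overlap at either age, with SLW above SW at 5 dpf and below it at 30 dpf, and the difference between the ages did not pass (adjusted p = 0.114). The sensory organ and lens list had 4 of 4 probes above 0 at 5 dpf, with a median of 0.49, and of 0.10 without SW replicate 2. Its miR-204, of lens and retinal pigment epithelium, was at 12.04 and 11.29 in SLW, against 10.86 and 10.20 in SW (1.13 ± 0.73, adjusted p = 0.488).

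miR-451, of red blood cells, was at 8.04 and 8.06 in SLW at 5 dpf, against 7.53 and 8.44 in SW, and at 10.27, 11.10 and 10.45 in SLW at 30 dpf, against 11.18, 10.76 and 10.45 in SW. Its groups overlapped at both ages. miR-223, of myeloid cells, was at 8.32, 8.86 and 9.17 in SLW at 30 dpf, against 9.45, 9.27 and 8.99 in SW (-0.45 ± 0.32, adjusted p = 0.724). miR-146a, induced by inflammatory signals in mammals, was at 8.04, 8.65 and 10.27 in SLW at 30 dpf, against 9.80, 8.86 and 8.73 in SW, with overlapping groups and SLW replicate 8 the highest (-0.15 ± 0.52).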
